A study of Rattus norvegicus with 44 samples.

Results

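The serpin family was taken as every entry of the kidney expression file whose gene symbol reads Serpin, a clade letter from a to i and a number. This gave 40 genes of 32883 entries, of which 39 are reported here, with 13 in clade A, 16 in clade B and 10 in clades C to I. A gene entered the tests when its FPKM (an expression level of sequenced fragments, corrected for transcript length and library size) was above 1 in at least 9 of 44 animals. This left 17 of the 39 serpins among 13482 tested genes, 4 of clade A, 6 of clade B and 7 of clades C to I. The other 22 are given by level only. All 39 symbols were found in the RefSeq gene table of assembly GRCr8, where 12 lie on chromosome 6, 11 on chromosome 13 and 6 on chromosome 17.

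The animals were male obese ZSF1 rats, F1 hybrids with a leptin receptor mutation from each parent line that develop obesity, diabetes, hypertension and kidney disease. Every rat carried a telemetry implant, and treatment in the feed started at 22 weeks of age and ran for 6 months. The Vehicle group had 11 rats. Enalapril, an angiotensin-converting enzyme inhibitor, was given to 9 rats at 3 mg/kg/day. Compound 1, a stimulator of soluble guanylate cyclase, was given to 12 rats at 1 and later 3 mg/kg/day. The combination group of 12 rats received the same Enalapril dose plus Compound 1 at 1 mg/kg/day. The study's methods name 3 mg/kg/day for Compound 1 alone only, so as stated the last Compound 1 dose differed between its 2 groups. The sources used here do not say outright whether the dose in the combination was later raised as well. Each rat gave 1 library from a piece of frozen kidney, which holds all cell types together. All 4 groups share the obese genotype.

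Serpins are proteins of 1 shared fold. An inhibitory serpin offers a protease a reactive loop, is cut, and traps the enzyme in a covalent complex, so each molecule is used once. Secreted serpins restrain coagulation, fibrinolysis and complement, clade B serpins act mostly inside cells, and a few serpins inhibit nothing and work as hormone carriers or as chaperones.

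The kidney label fitted the marker genes. The 9 proximal tubule markers (Slc34a1, Lrp2 and others) summed to between 1295 and 3454 FPKM in every animal. FPKM carry no read totals, so absolute depth is unknown. Relative depth was read from the most common ratio of low FPKM values between each library and 1 reference library. It ran from 0.624 to 1.43 times the median library, and 16246 to 17958 entries were above 0 per animal.

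Levels in kidney spanned more than 2 orders of magnitude. Serping1 (C1 inhibitor) and Serpinf1 (pigment epithelium-derived factor, which is secreted and limits vessel growth) stood highest, with means over 44 animals of 214 and 211 FPKM. Serpinh1 followed at 94.5 FPKM, then Serpinf2 at 83.0, Serpinc1 at 42.3, Serpinb6a at 41.8 and Serpinb1a at 40.9. Serping1 and Serpinf1 lay within each other's spread, as did Serpinc1, Serpinb6a and Serpinb1a. Serpine2 (23.6 FPKM) and Serpinb9 (14.8) came next. In all, 12 of the 17 tested serpins were above 1 FPKM in all 44 animals. Spread between animals differed widely by gene. In Vehicle the coefficient of variation was 9.4% for Serpinf1 and 10.5% for Serping1, against 47.4% for Serpina1 and 98.0% for Serpina3c.

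**Figure D1:**
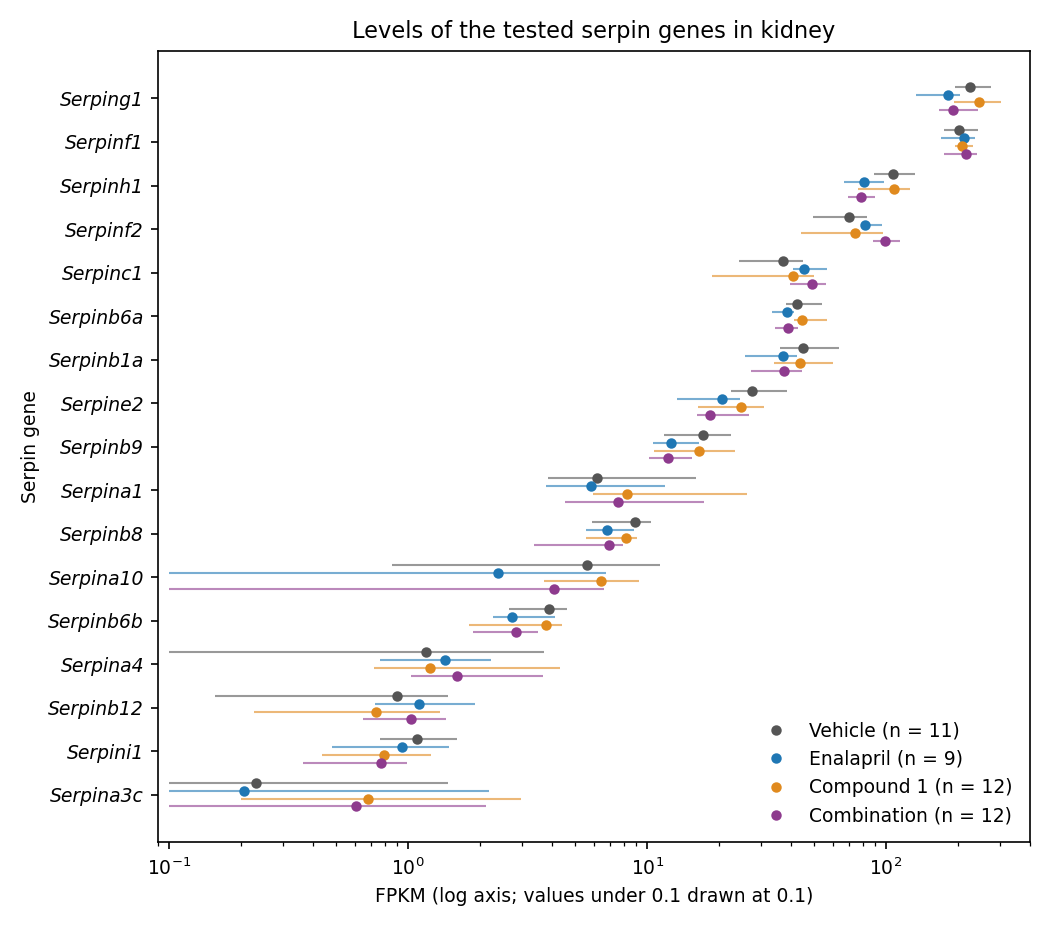
Levels of the 17 tested serpins in kidney, with FPKM on a log axis across and genes down, ordered by mean. Points are group medians and lines run from the lowest to the highest animal for Vehicle, Enalapril, Compound 1 and the combination. Serping1 and Serpinf1 stand highest, and Serpina3c, Serpina4 and Serpina10 have animals at or near 0.

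The main comparisons asked how each treatment changed the kidney transcriptome relative to Vehicle. Under Enalapril, 10 of 17 tested serpins differed from Vehicle at an adjusted p under 0.05, 8 lower and 2 higher. Under the combination 11 differed, 9 lower and 2 higher, and the 10 serpins found for Enalapril were all among them with the same sign. Serpini1, lower under the combination only, passed the filter on low values mainly through its Vehicle animals. Under Compound 1 alone none differed. Both of the serpins that rose were inhibitors of circulating proteases, Serpinc1 (antithrombin) and Serpinf2 (alpha 2-antiplasmin). The genes that were lower included the thrombin and urokinase inhibitor Serpine2, the collagen chaperone Serpinh1, Serping1 and 5 clade B genes. Both comparisons use the same 11 Vehicle animals, so they are not independent.

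These differences were moderate. Under the study's definition of a differentially expressed gene (DEG), which also asks for a fold change above 1.5 or under 0.66, no serpin was called under Enalapril, under Compound 1 or under the combination. The DEG shares of all 13482 tested genes were 4.53% under Enalapril, 0.2% under Compound 1 and 7.38% under the combination. The counts with no fold threshold were chosen after seeing the data, and the matching shares of all genes were 30.2% under Enalapril, 0.475% under Compound 1 and 45.6% under the combination. Lower genes made up 26.6% and 39.3% of all tested genes under Enalapril and the combination, and higher genes 3.57% and 6.38%. At an unadjusted p under 0.05, 11 serpins passed under Enalapril (42.8% of all genes), 3 under Compound 1 (13.3%) and 11 under the combination (53.4%). The test was limma on log2(FPKM + 0.1) with Benjamini-Hochberg adjustment over all tested genes. The median log2 fold change of the 17 serpins was -0.32 under Enalapril, 0.02 under Compound 1 and -0.22 under the combination, beside -0.15, -0.07 and -0.18 for all genes.

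**Figure D2:**
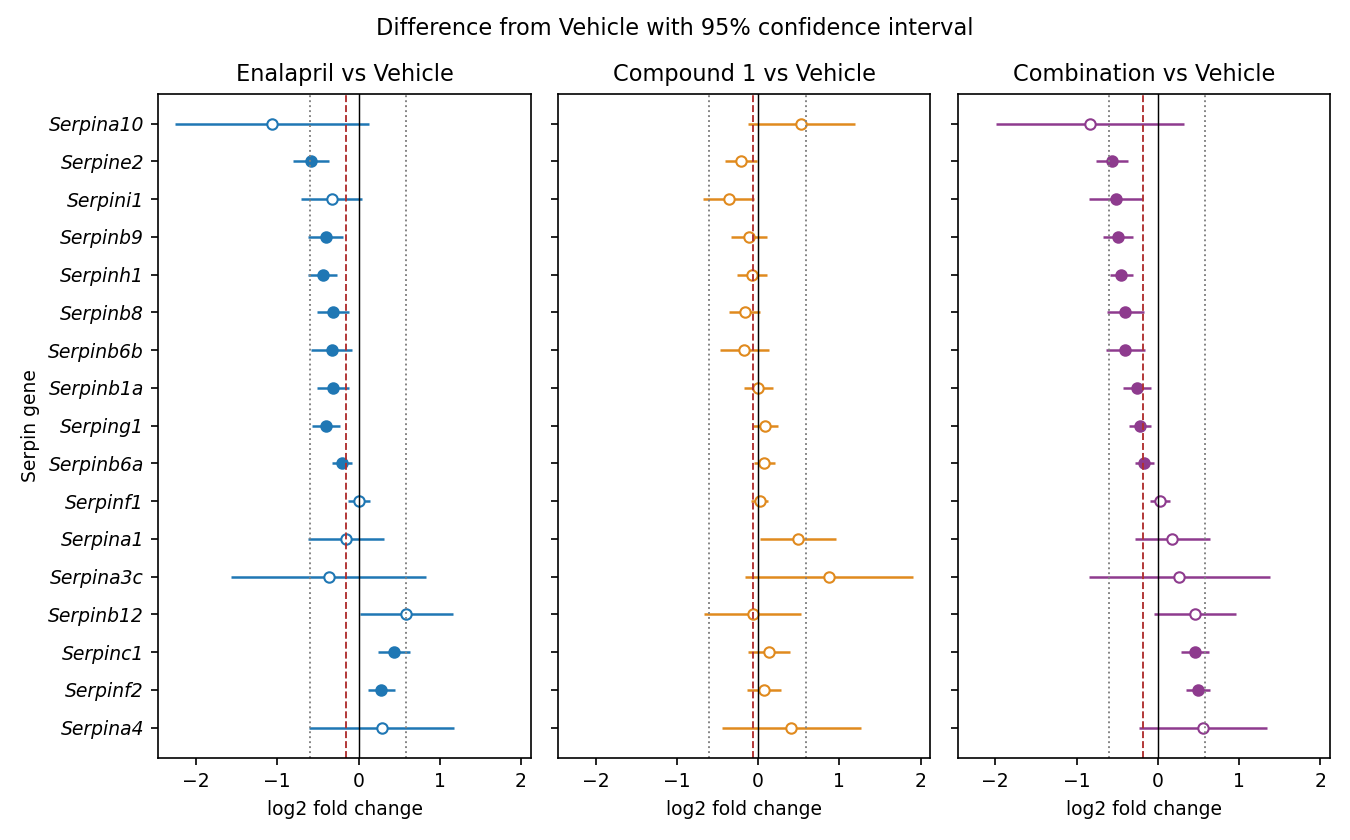
Log2 fold change from Vehicle (horizontal axis) of each tested serpin (vertical axis) with its 95% confidence interval, in 1 panel per treatment. Filled points have an adjusted p under 0.05, dotted lines mark the DEG fold thresholds and the dashed line is the median of all tested genes. Filled points appear under Enalapril (10) and the combination (11) and not under Compound 1.

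The scaling of the values bears on the lower genes. The median of all genes lay under 0 in all 3 comparisons, and rescaling each library by the median of its ratios to the average library brought it to 0.00 under Enalapril and -0.01 under the combination. After rescaling, 6 serpins kept an adjusted p under 0.05 for Enalapril and 5 under the combination, where 20.1% and 31.8% of all tested genes did. Serpine2, Serpinh1 and Serpinb9 stayed lower and Serpinc1 and Serpinf2 stayed higher in both. Serping1 stayed lower under Enalapril only. Among all genes the DEGs under Enalapril went from 66 higher and 545 lower to 205 higher and 164 lower, and under the combination from 134 higher and 861 lower to 337 higher and 311 lower. Which scaling is closer to RNA per cell was not tested. With the level of 6 inner medulla markers as a covariate, 2 serpins under Enalapril (Serpinh1 and Serpine2) and 10 under the combination kept an adjusted p under 0.05, against 4.89% and 39.1% of all tested genes. The markers summed to 128 to 245 FPKM in Vehicle, 111 to 175 under Enalapril, 149 to 233 under Compound 1 and 134 to 242 under the combination, and their part in the results was not tested.

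**Figure D3:**
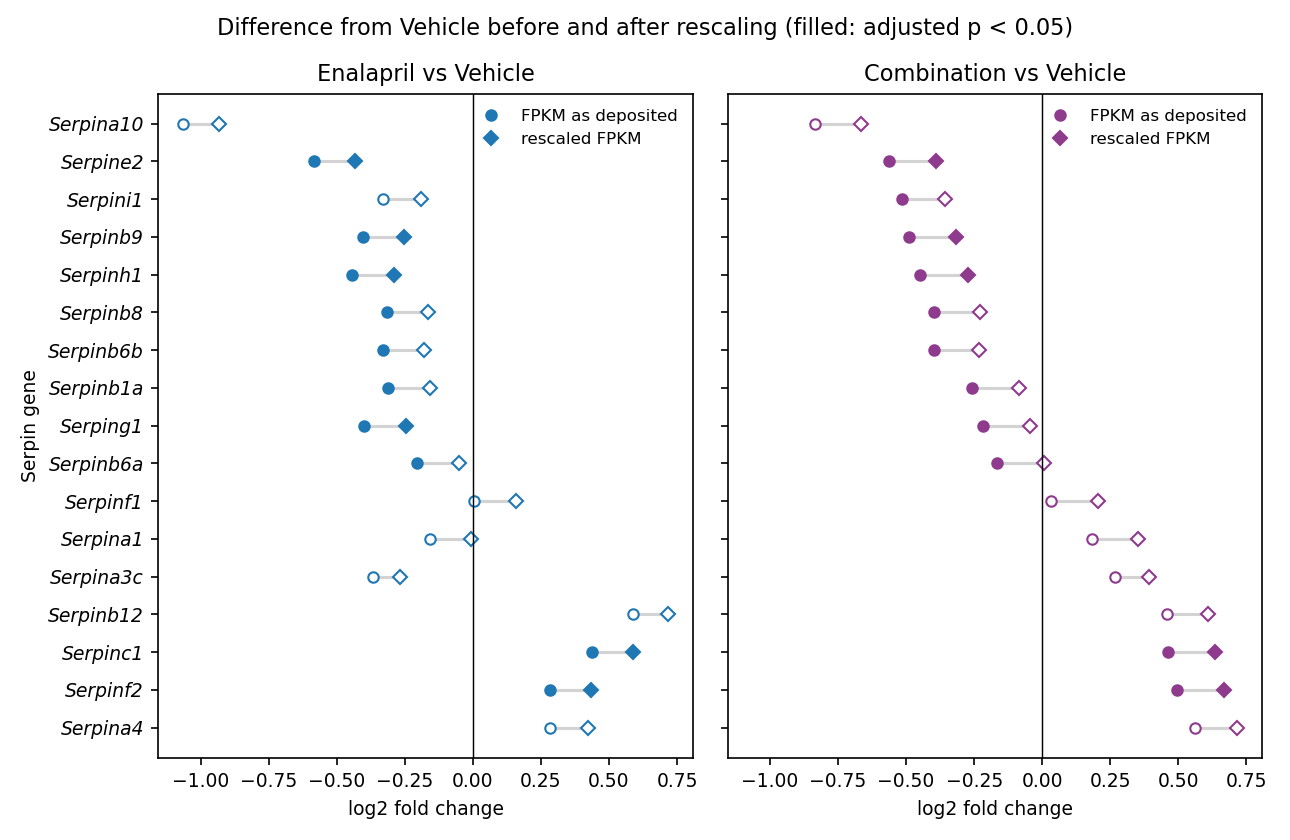
Log2 fold change from Vehicle (horizontal axis) of each tested serpin (vertical axis) on FPKM as deposited (circles) and after median-of-ratios rescaling (diamonds), for Enalapril and the combination. Filled symbols have an adjusted p under 0.05, and all 17 serpins shift to the right by a like amount.

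Serpine2 encodes protease nexin 1, which inhibits thrombin, urokinase and plasmin at cell surfaces and in matrix. The lowest, median and highest values were 22.5, 27.4 and 38.7 FPKM in Vehicle, 13.3, 20.7 and 24.5 under Enalapril, 16.3, 24.8 and 30.7 under Compound 1, and 16.2, 18.3 and 26.8 under the combination. Under Enalapril 8 of 9 animals, and under the combination 9 of 12, lay below the lowest Vehicle animal. The log2 fold change was -0.58 ± 0.11 under Enalapril (adjusted p = 0.000792) and -0.56 ± 0.10 under the combination (adjusted p = 0.00011), the lowest among serpins past the test in both. The fold of 0.667 under Enalapril narrowly missed the DEG threshold. Under Compound 1 the log2 fold change was -0.21 ± 0.10 (adjusted p = 0.34).

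The enzymes and receptors of the system that Serpine2 and Serpinf2 act on were followed as a list of the plasminogen system, of which 9 genes were tested. Under Enalapril 1 was a DEG, lower, and under the combination 3, all lower, with list medians of -0.37 and -0.26. With rescaled values no gene of the list was a DEG in either comparison, and the medians were -0.22 and -0.08. Plaur, the urokinase receptor, averaged 4.33 ± 1.15 FPKM (SD, n = 11) in Vehicle, 2.80 ± 0.760 (n = 9) under Enalapril and 2.57 ± 0.639 (n = 12) under the combination. Its log2 fold changes were -0.62 (adjusted p = 0.0132) and -0.72 (adjusted p = 0.00074). Anxa2 and S100a10, which together form a plasminogen receptor, were lower under the combination, by -0.74 (adjusted p = 6.59e-06) and -0.72 (adjusted p = 8.24e-06). Plau, which encodes urokinase itself, was abundant at 390 FPKM in Vehicle, with log2 fold changes of -0.21 under Enalapril and -0.26 under the combination (adjusted p = 0.0419 and 0.022). For Plat, tissue plasminogen activator, they were -0.22 and -0.26 (adjusted p = 0.0648 and 0.00475). Lrp1, an endocytic receptor that clears serpin and protease complexes, was lower by -0.42 and -0.34 (adjusted p = 0.002 and 0.00401) without reaching the fold threshold. Under Compound 1 no gene of the list was a DEG.

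Serpinf2 encodes alpha 2-antiplasmin, the fast inhibitor of plasmin, and went the other way. Its lowest, median and highest values were 49.5, 70.2 and 83.2 FPKM in Vehicle, 79.9, 82.1 and 96.3 under Enalapril, 44.2, 74.4 and 96.7 under Compound 1, and 88.5, 99.1 and 114 under the combination. All 12 combination animals lay above the highest Vehicle animal, a complete separation seen in this direction for 0.341% of all tested genes. No other tested serpin separated from Vehicle with any treatment. The shares of all tested genes that did were 0.927% under Enalapril, 0.0371% under Compound 1 and 1% under the combination, in either direction. The log2 fold change was 0.28 ± 0.08 under Enalapril (adjusted p = 0.0108), 0.07 ± 0.10 under Compound 1 (adjusted p = 0.788) and 0.50 ± 0.07 under the combination (adjusted p = 2.25e-05). The combination lay 0.21 ± 0.09 above Enalapril alone, which did not pass the test (adjusted p = 0.367, 95% interval 0.04 to 0.39). The fit of all 4 groups gave an interaction of 0.15 ± 0.12 (adjusted p = 0.986).

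Serpinc1 encodes antithrombin, the plasma inhibitor of thrombin and factor Xa that heparin speeds up. Its lowest, median and highest values were 24.3, 37.2 and 44.7 FPKM in Vehicle, 40.8, 45.6 and 56.7 under Enalapril, 18.6, 40.9 and 49.8 under Compound 1, and 39.5, 49.1 and 56.4 under the combination. All 9 Enalapril and all 12 combination animals were above the Vehicle median, and 5 and 9 of them above the highest Vehicle animal. Serpinc1 rose by 0.44 ± 0.09 on the log2 scale under Enalapril (adjusted p = 0.00192) and by 0.46 ± 0.08 under the combination (adjusted p = 0.000199). Under Compound 1 the difference was 0.13 ± 0.13 (adjusted p = 0.653). The rescaled values made Serpinc1 a DEG in both comparisons and Serpinf2 under the combination. With the inner medulla covariate neither gene kept an adjusted p under 0.05 under Enalapril.

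Of 13 tested coagulation genes none was a DEG under Enalapril or Compound 1 and 2 were lower under the combination. These were Kng1, which encodes kininogen (-0.64, adjusted p = 0.000101), and F2rl1, a receptor cut by trypsin-like proteases (-0.62, adjusted p = 0.000196). The list medians were -0.24 under Enalapril and -0.14 under the combination, and with rescaled values -0.09 and 0.03, where none was lower and 1 was higher under the combination. Serpind1, heparin cofactor II and another thrombin inhibitor, was under the filter, at 0 in 11 animals and at 1.21 FPKM in its highest. Of 8 tested kallikreins, membrane serine proteases and Kunitz inhibitors none was a DEG against Vehicle with any treatment, with medians of -0.09, -0.05 and -0.13 for Enalapril, Compound 1 and the combination, and 0.06 and 0.05 with rescaled values for the first and last, where 1 was higher under the combination.

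Marker lists of 3 kinds of kidney epithelium had medians above 0 in the same groups, and those of inner medulla and urothelium did not. The medians of 6 inner medulla genes were -0.21 under Enalapril and -0.09 under the combination, with no DEG, and -0.06 and 0.08 with rescaled values. For 6 genes of urothelium and squamous epithelium they were -0.24 and -0.19, with 1 lower DEG in each, and -0.09 and -0.03 with rescaled values. The 9 proximal tubule genes had a median log2 fold change of 0.33 under Enalapril and 0.33 under the combination, with no DEG among them, and -0.05 under Compound 1. With rescaled values 3 and 1 of them were higher DEGs, with medians of 0.48 and 0.50. The medians of 7 podocyte genes were 0.13 and 0.14 (0.28 and 0.31 with rescaled values), and those of 5 thick ascending limb and distal tubule genes 0.04 and 0.24 (0.19 and 0.41), with no DEG in either list. Under Compound 1 they were -0.05 and 0.23. Of 2 adipose genes 1 was a higher DEG under the combination. The summed proximal tubule level ran from 1705 to 2858 FPKM in Vehicle, 2716 to 3442 under Enalapril, 1295 to 2997 under Compound 1 and 2534 to 3454 under the combination. In bulk kidney, more cells of a type and more RNA per cell cannot be told apart, for lower genes likewise. The part of the tubule in the rise of Serpinc1 and Serpinf2 was not tested.

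**Figure D4:**
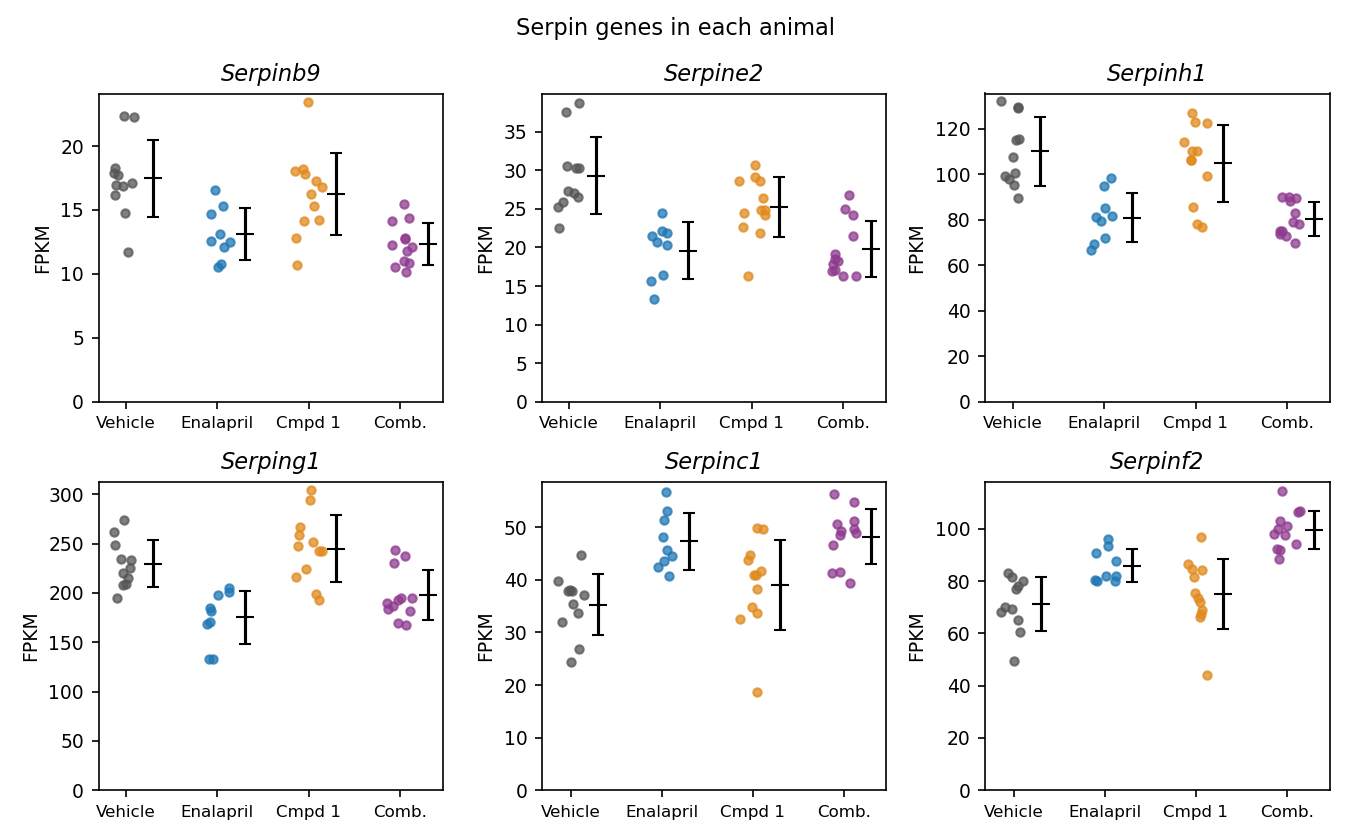
Each animal's FPKM (vertical axis, from 0) for 6 serpins in the 4 groups, with the mean and SD in black beside each group. Serpinb9, Serpine2, Serpinh1 and Serping1 sit lower under Enalapril and the combination, and for Serpinf2 all 12 combination animals sit above every Vehicle animal.

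Serpinh1 encodes HSP47, a chaperone of the endoplasmic reticulum that inhibits no protease and binds folding procollagen. Its lowest, median and highest values were 89.5, 108 and 132 FPKM in Vehicle, 66.6, 81.1 and 98.3 under Enalapril, 76.7, 108 and 127 under Compound 1, and 69.7, 78.4 and 90.1 under the combination. Under Enalapril 7 of 9 animals, and under the combination 10 of 12, were below the lowest Vehicle animal. Against Vehicle the log2 fold change was -0.44 ± 0.08 under Enalapril (adjusted p = 0.000875), -0.08 ± 0.09 under Compound 1 (adjusted p = 0.718) and -0.45 ± 0.07 under the combination (adjusted p = 4.35e-05).

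Some collagens, the proteins that HSP47 folds, were lower in the same groups, and most did not pass. Of 22 tested genes of collagens and collagen folding, 6 were DEGs under Enalapril and 4 under the combination, all lower, and none under Compound 1. List medians were -0.46, -0.35 and -0.07. With rescaled values 4 and 2 were DEGs, all lower, with medians of -0.31 and -0.17. Col1a1 averaged 56.0 ± 12.8 FPKM in Vehicle (SD, n = 11), 32.6 ± 6.28 under Enalapril (n = 9), 51.6 under Compound 1 and 34.2 ± 8.47 under the combination (n = 12). Its log2 fold changes were -0.77 under Enalapril (adjusted p = 0.000303) and -0.71 under the combination (adjusted p = 0.00015). Col15a1, a basement membrane collagen, was lower by -0.90 and -0.78 (adjusted p = 0.000162 and 3.57e-05), and Col3a1 by -0.77 and -0.78 (adjusted p = 0.000336 and 4.94e-05). Col1a2 was lower under Enalapril, by -0.89 (adjusted p = 0.00539).

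Serping1 encodes C1 inhibitor, which blocks C1r, C1s, plasma kallikrein and factor XIIa. Its lowest, median and highest values were 195, 226 and 274 FPKM in Vehicle, 133, 182 and 205 under Enalapril, 193, 245 and 304 under Compound 1, and 167, 191 and 244 under the combination. Under Enalapril all 9 animals lay below the Vehicle median and 6 below the lowest Vehicle animal, while under the combination 9 of 12 and 7 of 12 did. The log2 fold change was -0.40 ± 0.08 under Enalapril (adjusted p = 0.0017) and -0.22 ± 0.07 under the combination (adjusted p = 0.0117), and after rescaling -0.25 (adjusted p = 0.0158) and -0.05 (adjusted p = 0.593). Under Compound 1 it was 0.09 ± 0.07 (adjusted p = 0.596). The combination and Enalapril differed by 0.18 ± 0.08, which did not pass the test (adjusted p = 0.431, 95% interval 0.01 to 0.35).

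The genes at the start of the classical and lectin pathways, which C1 inhibitor holds in check, were followed beside it. Of 11 tested genes, 4 were lower and 1 higher as DEGs under Enalapril, 5 lower and 1 higher under the combination, and none under Compound 1. With rescaled values 1 was lower and 1 higher in each of the first 2 comparisons, with medians of -0.40 and -0.42 against -0.56 and -0.59 as deposited. C4b and C4a, near-identical copies whose reads may have been split between them, were lower by -1.03 and -0.75 under Enalapril (adjusted p = 0.000178 and 0.000522) and by -0.79 and -0.73 under the combination (adjusted p = 0.000225 and 0.000104). C1s was lower by -0.56 and -0.60 (adjusted p = 0.00551 and 0.000275), the second of them a DEG. C1r was lower by -0.49 and -0.43 (adjusted p = 0.0128 and 0.003). Mbl1, a mannose-binding lectin, was higher by 0.69 and 0.77 (adjusted p = 0.000931 and 5.21e-05).

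The 5 serpins that passed the test in both comparisons under both scalings were Serpinh1, Serpine2, Serpinb9, Serpinc1 and Serpinf2. The 250 bases before their annotated starts (RefSeq, GRCr8) are shown because these genes, 3 lower and 2 higher, passed under either scaling. With the inner medulla covariate Serpinh1 and Serpine2 alone of the 5 passed under Enalapril. Capitals mark any of 7 motifs searched on both strands, namely the heat shock element (GAANNTTC), the STAT motif (TTCNNNGAA), the E-box (CACGTG), the SMAD motif (CAGACA), the TATA box (TATAAA), the GC box (GGGCGG) and the CAAT box (CCAAT).
Serpinh1 (chr1:163062977-163063226, minus strand): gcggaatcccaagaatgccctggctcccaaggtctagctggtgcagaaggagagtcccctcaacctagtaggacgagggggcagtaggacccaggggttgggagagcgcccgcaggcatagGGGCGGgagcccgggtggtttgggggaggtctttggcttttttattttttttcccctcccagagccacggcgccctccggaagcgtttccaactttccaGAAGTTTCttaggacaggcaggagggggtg
Serpine2 (chr9:88637203-88637452, minus strand): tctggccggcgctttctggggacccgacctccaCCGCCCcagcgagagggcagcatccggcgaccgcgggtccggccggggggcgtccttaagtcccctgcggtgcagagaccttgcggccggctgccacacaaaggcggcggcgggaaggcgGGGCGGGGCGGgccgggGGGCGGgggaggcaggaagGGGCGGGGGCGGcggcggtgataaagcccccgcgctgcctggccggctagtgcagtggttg
Serpinb9 (chr17:31640817-31641066, minus strand): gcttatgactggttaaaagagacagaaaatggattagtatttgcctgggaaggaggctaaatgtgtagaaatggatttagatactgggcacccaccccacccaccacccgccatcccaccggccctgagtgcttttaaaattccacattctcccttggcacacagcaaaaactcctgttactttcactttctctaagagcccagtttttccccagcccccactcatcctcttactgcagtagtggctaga
Serpinc1 (chr13:75790308-75790557, plus strand): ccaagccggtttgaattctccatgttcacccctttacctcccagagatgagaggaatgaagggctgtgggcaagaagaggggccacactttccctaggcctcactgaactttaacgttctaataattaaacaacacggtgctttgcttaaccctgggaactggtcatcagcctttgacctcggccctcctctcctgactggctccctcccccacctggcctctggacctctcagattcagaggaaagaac
Serpinf2 (chr10:60778783-60779032, minus strand): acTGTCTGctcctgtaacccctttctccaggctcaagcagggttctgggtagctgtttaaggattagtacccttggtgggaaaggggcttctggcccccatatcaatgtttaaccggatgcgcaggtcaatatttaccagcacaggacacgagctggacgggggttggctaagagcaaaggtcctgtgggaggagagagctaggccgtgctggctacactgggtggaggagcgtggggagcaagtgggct

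The window of Serpinh1 held the heat shock element 30 bases before the start and a GC box at 129. The heat shock motif occurs in 7.23% of all 33469 RefSeq windows of this length. It stood in 5 of 32 serpins with a window, and in 1 of the 12 tested among them, Serpinh1. Serpine2 held 6 GC boxes, at 217, 97, 92, 80, 61 and 55 bases before the start, of which those at 97 and 92 overlap, and GC boxes occur in 30.5% of all windows. Serpinf2 held the SMAD motif in reverse at 248 (17.2% of all windows). Serpinb9 and Serpinc1 held none of the 7. Over the 32 serpins with a window the SMAD motif stood in 17 and the STAT motif in 1, against 17.2% and 7.67% of all windows. The TATA box stood in 5, the GC box in 7, the CAAT box in 10 and the E-box in 1, against 12.9%, 30.5%, 34% and 5.59%. Among the 12 tested serpins with a window the SMAD motif stood in 5 and the STAT motif in none. A serpin was counted if any of its windows held the motif, and some have more than 1, while the shares are of single windows. A short motif in a window is a match of letters and no evidence of binding. Serpina3c, Serpina6, Serpina10, Serpinb8, Serpinb12, Serpind1 and Serping1 had no entry in the promoter table.

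Clade B serpins mostly stay inside the cell, where they protect it from its own or neighbouring leukocyte and lysosomal proteases. Of 6 tested, 5 were lower under Enalapril and the same 5 under the combination, Serpinb1a, Serpinb6a, Serpinb6b, Serpinb8 and Serpinb9. By the same rule, an adjusted p under 0.05, 26.6% and 39.3% of all tested genes were lower. None was a DEG, and with rescaled values only Serpinb9 stayed past the threshold. Serpinb9, the inhibitor of granzyme B, had lowest, median and highest values of 11.7, 17.1 and 22.4 FPKM in Vehicle, 10.5, 12.6 and 16.6 under Enalapril, 10.7, 16.5 and 23.4 under Compound 1, and 10.2, 12.2 and 15.5 under the combination. All 9 Enalapril and all 12 combination animals were below the Vehicle median. The log2 fold change was -0.40 ± 0.10 under Enalapril (adjusted p = 0.00614) and -0.49 ± 0.09 under the combination (adjusted p = 0.000228).

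Serpinb1a, which blocks neutrophil elastase and cathepsin G, averaged 44.8 ± 7.51 FPKM in Vehicle (SD, n = 11), 36.0 ± 5.36 under Enalapril (n = 9), 44.7 ± 6.50 under Compound 1 (n = 12) and 37.3 ± 4.45 under the combination (n = 12). Its log2 fold changes were -0.31 ± 0.10 and -0.26 ± 0.08 under Enalapril and the combination (adjusted p = 0.0192 and 0.0136). Serpinb8, an inhibitor of furin, averaged 8.62, 6.90, 7.70 and 6.58 FPKM in Vehicle, Enalapril, Compound 1 and the combination, with log2 fold changes of -0.32 and -0.40 (adjusted p = 0.0162 and 0.00596). Serpinb6a, which binds cathepsin G, varied least between animals among the 6. It averaged 43.7 ± 4.66 FPKM in Vehicle, 37.9 ± 2.50 under Enalapril, 46.1 ± 4.89 under Compound 1 and 38.9 ± 2.73 under the combination. Its log2 fold change of -0.17 under the combination (adjusted p = 0.0185) turned to 0.01 with rescaled values. Serpinb6b averaged 3.73, 2.94, 3.37 and 2.80 FPKM in the 4 groups in the same order. Its test under Enalapril (adjusted p = 0.0438) was lost in 14 of 20 fits that left out 1 animal. Serpinb9, Serpinb6a and Serpinb1a each have close copies in the rat, so shared reads make the split between copies uncertain. In the gene table Serpinb9, Serpinb6b and Serpinb1a are consecutive coding genes on chromosome 17.

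Serpinb12, the other tested gene of the clade, had group means of 0.828 ± 0.402, 1.19 ± 0.359, 0.758 ± 0.321 and 1.08 ± 0.284 FPKM in Vehicle, Enalapril, Compound 1 and the combination. Its log2 fold changes of 0.59 ± 0.28 under Enalapril and 0.46 ± 0.24 under the combination did not pass the test (adjusted p = 0.107 and 0.123). Serpinb12 was above 1 FPKM in 2 Vehicle, 6 Enalapril, 2 Compound 1 and 6 combination animals. The filter was thus met mainly through Enalapril and the combination, the groups with the higher means.

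Proteases of leukocytes and lysosomes, which several clade B serpins inhibit, were followed beside them. Of 10 tested, 3 were lower as DEGs under Enalapril, 1 under Compound 1 and 5 under the combination, and none was higher. With rescaled values 1 was lower under Enalapril and 1 under the combination. Cma1, mast cell chymase, averaged 2.69 FPKM in Vehicle, 1.23 under Enalapril, 1.15 under Compound 1 and 0.892 under the combination, with log2 fold changes of -1.10, -1.19 and -1.60 (adjusted p = 0.00028, 0.00116 and 4.69e-05). Cpa3, the other mast cell marker tested, was a lower DEG in the same 3 comparisons. Prf1, perforin, was lower by -0.72 under Enalapril and -0.61 under the combination (adjusted p = 0.00776 and 0.00218), and Gzmk, granzyme K, by -0.73 under the combination (adjusted p = 0.00982).

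Part of the markers of leukocytes and of matrix-forming cells was lower in the same groups, fewer with rescaled values. Of 7 macrophage markers 3 were lower DEGs under Enalapril and 4 under the combination, of 7 T and B cell markers 4 and 6, and of 8 fibroblast, mesangium and pericyte markers 4 and 4. With rescaled values these counts were 0 and 1, 2 and 1, and 3 and 3, all lower. Of 3 neutrophil markers none was a DEG under Enalapril and 1 was lower under the combination, with either scaling. Under Compound 1 none of these 4 lists held a DEG. The summed macrophage markers ran from 226 to 458 FPKM in Vehicle, 169 to 247 under Enalapril, 191 to 416 under Compound 1 and 165 to 268 under the combination. The summed T and B cell markers ran from 27.6 to 58.6, 20.4 to 35.8, 25.5 to 56.7 and 20.6 to 45.1 FPKM in the same order. The summed fibroblast, mesangium and pericyte markers ran from 296 to 515, 186 to 348, 233 to 483 and 204 to 341 FPKM. These lists share C1qa and C1qb with the complement list and Col1a1 and Col3a1 with the collagen list. Every member of the macrophage, T and B cell, and fibroblast, mesangium and pericyte lists was tested. Of 5 neutrophil markers 3 were tested, and Mpo and Elane averaged under 0.1 FPKM. The part of these lists in the lower serpins was not tested.

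Clade A holds the secreted serpins of liver and plasma. The 4 that passed the filter, Serpina1, Serpina3c, Serpina4 and Serpina10, differed from Vehicle with no treatment at an adjusted p under 0.05. Serpina3c varied most between animals of any tested serpin, with a coefficient of variation of 90.1% to 157% within groups. Serpina1, alpha 1-antitrypsin and the main inhibitor of neutrophil elastase, had lowest, median and highest values of 3.83, 6.19 and 16.0 FPKM in Vehicle, 3.77, 5.84 and 11.9 under Enalapril, 5.91, 8.21 and 26.3 under Compound 1, and 4.55, 7.55 and 17.3 under the combination. Its log2 fold changes were -0.16 ± 0.23, 0.49 ± 0.23 and 0.18 ± 0.22 under Enalapril, Compound 1 and the combination (adjusted p = 0.613, 0.356 and 0.513).

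Serpina1 and Serpina3c followed liver transcripts from animal to animal, and Serpina4 and Serpina10 did so in part of the groups. In each group the animal highest for Serpina1 was also highest for Alb, the albumin gene, animals 1008, 2103, 3105 and 4004 in Vehicle, Enalapril, Compound 1 and the combination. Alb was 94.7 FPKM in the first against a group median of 9.60, 48.0 against 6.65 in the second, 168 against 21.5 in the third and 150 against 20.3 in the fourth. The mean log2 level of 9 liver markers other than Serpina1 was compared with 4 clade A genes in each of 4 groups, 16 relations in all. Pearson's r ran from 0.32 to 0.945, and its adjusted p was under 0.05 in 12 relations and that of Spearman's rho in 10. For Serpina1 r was 0.908 and rho 0.855 in Vehicle (n = 11, permutation test, adjusted p = 0.0009 and 0.0038). Under Enalapril they were 0.945 and 0.950 (n = 9, exact permutation test, adjusted p = 0.0009 and 0.0019). Under Compound 1 r was 0.901 and rho 0.783 (n = 12, permutation test, adjusted p = 0.00099 and 0.0079). For the combination r was 0.853 and rho 0.615 (n = 12, permutation test, adjusted p = 0.0013 and 0.054). Without the 2 animals farthest from the median of the liver list, r for Serpina1 was 0.796, 0.862, 0.601 and 0.656.

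Serpina3c behaved likewise, with r of 0.916, 0.931, 0.808 and 0.852 in Vehicle, Enalapril, Compound 1 and the combination, and 0.931, 0.880, 0.560 and 0.789 without the farthest animals. It belongs to a cluster of near copies (Serpina3a, 3c, 3l, 3m and others), and its levels were low, with medians of 0.232, 0.206, 0.679 and 0.607 FPKM. Serpina4, kallistatin, an inhibitor of tissue kallikrein, had r of 0.683, 0.590, 0.788 and 0.872. Under Compound 1 its relation rested on 2 animals, since r was 0.20 without them. Serpina10, the inhibitor of factor Xa that works with protein Z, was related to the liver list under Enalapril (r = 0.843, rho = 0.767, n = 9, exact permutation test, adjusted p = 0.0027 and 0.034) and there fell to 0.541 without the farthest animals. In the other groups its r was 0.320, 0.323 and 0.599, with no adjusted p under 0.05. The whole liver list summed to 44.7 to 196 FPKM in Vehicle, 32.3 to 123 under Enalapril, 55.3 to 326 under Compound 1 and 49.8 to 254 under the combination. Its part in the levels of clade A was not tested.

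**Figure D5:**
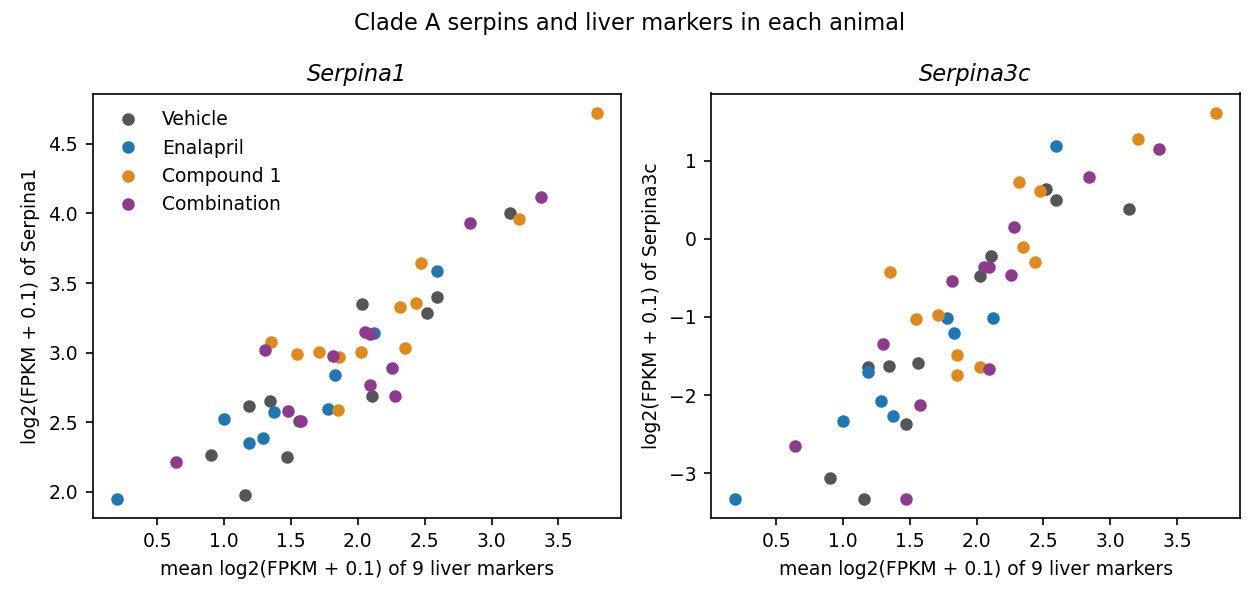
Each animal's log2(FPKM + 0.1) of Serpina1 and Serpina3c (vertical axes) against the mean log2(FPKM + 0.1) of 9 liver markers (horizontal axis), coloured by group. Points of all 4 groups rise together, with r between 0.808 and 0.945 within groups for these 2 genes.

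Serpina10 itself averaged 5.43 ± 3.13 FPKM in Vehicle (SD, n = 11), 2.97 ± 1.94 under Enalapril (n = 9), 6.66 ± 2.03 under Compound 1 (n = 12) and 3.64 ± 2.33 under the combination (n = 12). Its lowest values under Enalapril and the combination, in animals 2001 and 4001, were estimates of practically 0, listed as 1.63e-14 and 7.74e-15. The log2 fold changes were -1.07 ± 0.57 and -0.83 ± 0.56 against Vehicle (adjusted p = 0.159 and 0.226), and with pseudocounts of 1 and 0.01 they were -0.68 and -1.43 for Enalapril. Against Compound 1 it was -1.60 ± 0.57 under Enalapril (adjusted p = 0.0522) and -1.37 ± 0.53 under the combination (adjusted p = 0.0539), which missed the threshold. With a pseudocount of 1 both passed it (adjusted p = 0.0219 and 0.0265), and with 0.01 neither did (adjusted p = 0.101 and 0.103). The 9 tested genes of the whole liver list, Serpina1 among them, had medians of -0.64 and -0.36 in these 2 comparisons, with 2 lower DEGs in each, and their part in the Serpina10 values was not tested.

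Serpinf1 was the abundant serpin that moved least. Its lowest, median and highest values were 175, 202 and 244 FPKM in Vehicle, 170, 212 and 237 under Enalapril, 195, 209 and 232 under Compound 1, and 175, 217 and 241 under the combination. The log2 fold changes were 0.00 ± 0.06, 0.02 ± 0.05 and 0.03 ± 0.06 (adjusted p = 0.972, 0.896 and 0.689), with 95% intervals of -0.13 to 0.14, -0.08 to 0.12 and -0.09 to 0.15. Its neighbour in the gene table, Serpinf2, rose in 2 of the same 3 comparisons. Serpini1, neuroserpin, an inhibitor of tissue plasminogen activator in nerve tissue, was near the filter at 1.10 ± 0.240 FPKM in Vehicle. It averaged 0.878 ± 0.297 under Enalapril, 0.840 ± 0.210 under Compound 1 and 0.749 ± 0.198 under the combination. All 12 combination animals lay below the Vehicle median (-0.52 ± 0.16, limma, adjusted p = 0.0119). Serpini1 was above 1 FPKM in 8 Vehicle, 2 Enalapril, 2 Compound 1 and 0 combination animals. The filter was thus met mainly through Vehicle, the group it is compared with.

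The treatments were also compared with each other in a fit of all 4 groups. The combination did not differ from Enalapril alone for any serpin as a DEG (0.00742% of all genes) or at an adjusted p under 0.05 (0.0519% of all genes), and 2 serpins, Serpinf2 and Serping1, had an unadjusted p under 0.05 (10.4% of all genes). Against Compound 1 given alone, where the dose reached 3 mg/kg/day, the combination had no DEG among the serpins (2.33% of all genes) but 8 past an adjusted p of 0.05 (22.2% of all genes, 17.4% lower and 4.72% higher). Of these 6 were lower, Serpine2, Serping1, Serpinh1, Serpinb1a, Serpinb6a and Serpinb9, and 2 higher, Serpinc1 and Serpinf2. Serpinh1 was lower by -0.37 ± 0.08 (adjusted p = 0.00134) and Serpinf2 higher by 0.43 ± 0.08 (adjusted p = 0.000496). Enalapril against Compound 1 gave no DEG (2.22% of all genes) and 5 past the same adjusted p, all lower (13.5% of all genes differed and 10.9% were lower), Serpine2, Serping1, Serpinh1, Serpinb1a and Serpinb6a. Serping1 was lower there by -0.49 ± 0.08 (adjusted p = 0.000126).

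No serpin showed an interaction of Enalapril and Compound 1. None of 17 passed the limma test, none had an unadjusted p under 0.05 (4.29% of all genes), and the lowest adjusted p was 0.986, with 0.00742% of all genes called. The interval was narrowest for Serpinf1 (-0.15 to 0.16) and wide for Serpina10 (-1.87 to 1.27), so a departure from additivity was not detectable with these animals for the variable genes. As stated in the methods, the last Compound 1 dose also differed between the groups that received it, so the interaction cannot separate dose from additivity.

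Of the 22 serpins under the filter, 3 (Serpinb3a, Serpinb9d and Serpini2) were at 0 in all 44 animals, 15 were above 0 somewhere and never above 1 FPKM (Serpinb1b only as estimates of practically 0), and 4 exceeded 1 FPKM in at least 1 animal. These 4 were Serpina6 (corticosteroid-binding globulin), Serpina11, Serpina16 and Serpind1. Serpina6, Serpina11 and Serpind1 were highest in animal 3105, the Compound 1 animal with the highest Alb, at 1.47, 1.12 and 1.21 FPKM. The remainder averaged at most 0.297 FPKM (Serpina3m) and included genes best known from other tissues, such as Serpinb2 (of macrophages and placenta), Serpinb5 (maspin, of epithelia) and Serpina7 (thyroxine-binding globulin). Serpinb5 averaged 0.370 ± 0.154 FPKM in Vehicle and 0.149 ± 0.111 under the combination, under the level at which genes were tested. With no filter on low values it was the only serpin called under the combination (-0.98 ± 0.23, adjusted p = 0.00326), where 5.88% of all genes were called.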

How the data were processed

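Total RNA from snap-frozen right kidney of 44 rats was made into TruSeq Stranded mRNA libraries and sequenced as paired ends by the authors, who deposited FPKM per gene on build rn6. The authors ran DESeq2 on raw counts. Which aligner and which counter they used is not given in the sources used here. Deposited values are FPKM and not counts, so no count model was run. Empty columns (2) were left out, and all 44 columns of values were matched to animals by number.

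Differences in log2(FPKM + 0.1) were fitted by limma (version 3.58.1, R version 4.3.3), its prior variance following the mean level. The filter asked for FPKM above 1 in 9 animals or more. Each treatment was fitted with Vehicle alone, and other comparisons and the interaction used all 4 groups. A DEG had a Benjamini-Hochberg adjusted p under 0.05 over all 13482 tested genes and a fold above 1.5 or under 0.66. Fold changes are on the log2(FPKM + 0.1) scale, which understates the change of low genes. Every number after ± is an SD for levels and an SE for fold changes. The limma comparisons of 2 groups were checked on simulated data. The simulated folds were larger than those of the serpins with an adjusted p under 0.05, so differences of that size were not checked. The check covered neither the interaction nor the correlations. Correlations used permutation tests in Python 3.11.15, exact for 9 animals and with 100000 permutations otherwise, two-sided.

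Alternatives were pseudocounts of 1 and 0.01, no filter, median-of-ratios scaling, an inner medulla marker covariate, a change of which animals enter each fit, and leaving out animals. One of the 40 serpins is not reported here and stands in no count of members. Every other tested serpin is named, with up to 3 DEGs of largest change from each partner list plus Plau, Plat, Plaur, C1r, C1s, Col1a1 and Lrp1. Members and lists were chosen with earlier results of these data known. Upstream sequences and gene order came from RefSeq (GRCr8), which is another build than rn6, and 32 of 39 serpins matched a window.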

Additional observations from a re-analysis of the deposited data

Results flagged for a closer look

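Serpina3c with Enalapril had 1 animal far from the others of its group. Animal 2103 had 2.18 FPKM, and the next of the 9 animals had 0.394, so the gap took up 0.82 of the whole range of the group. The same animal had the highest Alb (48.0 FPKM) and Serpina1 (11.9 FPKM) of the Enalapril group. A gap of this kind was looked for in the 17 tested serpins within the Enalapril group, the only group of 10 animals or fewer. For normally spread values chance gives about 1 such gap in 20 groups. The gap was taken on FPKM and was not looked for on the log2 scale of the tests.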

How the results depend on the processing

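No serpin was a DEG in the main fits, so no call could be lost or change sign. Under 9 alternatives and with each animal left out in turn, calls that arose among tested serpins had the sign of the main fit. Serpinb6a, past the adjusted p alone under the combination, went from -0.17 to 0.01 with median-of-ratios scaling. Of 608 recomputed counts 557 stayed within 1.5 times. Counts of 0 that stayed at 0 are among the 557, and every main DEG count was 0, so this share is no measure of stability. With median-of-ratios scaling the DEG counts went to 1 with Enalapril (Serpinc1) and 2 with the combination (Serpinc1 and Serpinf2), and the counts with no fold threshold to 6 with Enalapril and 5 with the combination. The matching shares of all tested genes were 2.74% and 4.81% for DEGs, and 20.1% and 31.8% with no fold threshold. With the inner medulla covariate the counts with no fold threshold were 2 with Enalapril (Serpinh1 and Serpine2), 4 for the combination against Compound 1 and 1 for Enalapril against Compound 1 (Serping1). The shares of all tested genes were 4.89%, 6.06% and 0.786% in the same order. Enalapril had 1 DEG (Serpine2) without 6 animals that stand apart at the end of the sample list and 1 without 5 animals whose numbers stand apart from their group. The DEG shares of all genes there were 4.38% and 5.65%. With no filter the combination had 1 DEG (Serpinb5, beside 5.88% of all genes). With a pseudocount of 1 Enalapril against Compound 1 had 1 (Serpina10, beside 0.987% of all genes). The combination against Compound 1 had 1 (Serpina10) with that pseudocount, with only the 2 groups compared in the fit, without the 6 listed apart and without Vehicle animals 1003 and 1004. The DEG shares of all genes were 0.853%, 2.31%, 3.72% and 2.41% in that order. Enalapril against Compound 1 had 2 with only its 2 groups in the fit (Serpina10, Serpina1), and without Vehicle animals 1003 and 1004 it had 2 (Serpina10, Serpinb12), with 9 past the adjusted p alone. The DEG shares of all genes were 2.16% and 2.29%, and 15.7% passed the adjusted p alone without 1003 and 1004. The cause of these shifts was not tested.

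Leaving out 1 animal gave 0 to 1 DEGs with Enalapril, 0 to 0 with Compound 1, 0 to 1 with the combination, 0 to 0 for the combination against Enalapril, 0 to 1 for the combination against Compound 1, 0 to 3 for Enalapril against Compound 1 and 0 to 0 for the interaction. The counts with no fold threshold ran from 9 to 10, 0 to 0, 11 to 11, 0 to 0, 7 to 10, 3 to 10 and 0 to 0 in the same order. Serpine2 became a DEG with Enalapril without animal 1004, 1009, 1011, 2005, 2009, 2012 or 2103 and with the combination without 1009 or 4011. Between Enalapril and Compound 1 Serpina10 became a DEG without 1004, 1010, 2009, 2103, 3011, 4001 or 4002, Serpina1 without 1008, 2103, 3007, 3011 or 4004, Serpina3c without 2103, and Serpinb12 without 1003 or 3104. For the combination against Compound 1 Serpina10 did without 1010, 2001, 3011, 4005, 4007, 4009 or 4011. Serpine2 and Serpinb1a lost their adjusted p for Enalapril against Compound 1 without 2001, and Serpinb1a for the combination against Compound 1 without 3001. With Enalapril Serpinb6b kept its adjusted p only without 1008, 1010, 1011, 2001, 2007 or 2009. No paired analysis was possible because each animal stands in 1 group and no number is shared between groups.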
